A study of Mus musculus with 96 samples.

Results

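Arc, Fos, Fosb, Junb, Egr1, Egr2, Egr3, Egr4, Nr4a1 and Npas4 are 10 immediate early genes that neurons transcribe within minutes of synaptic activity. They were taken by gene symbol from count tables of 32594 genes and followed through 3 brain regions, 2 time points and 4 groups of mice. All 10 had counts in both tables. Immediate early genes need no new protein for their induction: calcium entry and growth factor signals activate kinases, which phosphorylate factors already sitting on the promoters, such as CREB and the partners of serum response factor. Most of the products are themselves transcription factors that switch on a later set of effector genes, and Arc is the effector among them, a protein of the postsynapse that takes part in the removal of AMPA receptors. In the hippocampus their transcripts are widely used as marks of recently active neurons, and they also rise after seizures, handling and injury.

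Bulk mRNA sequencing had been carried out on 96 libraries from the ipsilateral hippocampus, thalamus and hypothalamus of male C57BL/6 mice aged 8 to 10 weeks, 32 libraries per region. Mice had received controlled cortical impact (TBI), a piston strike on the exposed cortex, or a sham procedure of anaesthesia and scalp incision with no opening of the skull, and were killed 3 or 29 days later (days post-injury, dpi). Each injury was combined with vehicle (VH) or candesartan (CD), a blocker of the angiotensin type 1 receptor, which gave the groups Sham + VH, Sham + CD, TBI + VH and TBI + CD of 4 libraries each in every region and time point. Candesartan was given at 0.1 mg/kg/day from 6 h after injury, by repeated injection in the 3 dpi mice and mostly by subcutaneous osmotic pump in the 29 dpi mice, so that time after injury, route of delivery and cohort cannot be told apart. Before dissection all mice were perfused with cold saline under ketamine and xylazine anaesthesia, the libraries of each group were those with the best RNA, and the labels do not say which libraries of different regions came from the same mouse. Adjusted p-values below therefore measure the spread between libraries within groups of 4, pooled over all groups of a fit.

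Total counts per library ranged from 17150610 to 31253784 at 3 dpi and from 6663629 to 38589791 at 29 dpi, where 4 hippocampal libraries of low depth held 6663629 to 11283868. Summed markers matched the labelled regions: 8 markers of hippocampal excitatory neurons together reached 1899.6 to 2665 CPM (counts in each 1000000 of the library) in the hippocampus and 279.9 to 439 in the hypothalamus, the thalamic markers 1616 to 3315 CPM in the thalamus and 75.4 to 268 in the hippocampus, and the hypothalamic markers 842 to 1716 CPM in the hypothalamus. None of these markers was at 0 in all 16 libraries of its region at either time point. The dissections were uneven in what else they held. Choroid plexus markers ranged from 22.1 to 7485 CPM in hippocampal libraries, and hypothalamic markers from 14.3 to 664 CPM in thalamic libraries. In the hippocampus at 29 dpi, Sham + VH replicate 3 stood apart with 99.3 CPM of hypothalamic markers, against 1.37 to 7.11 CPM in the other libraries of its group.

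In the GENCODE annotation of the mm10 assembly, Fos lies at chr12:85473890-85477273 on the plus strand, Nr4a1 at chr15:101254269-101274795 on the plus strand, and Egr4 at chr6:85511121-85513589 and Arc at chr15:74669083-74672570 on the minus strand. On the plus strand are Egr2 at chr10:67535475-67542188 and Egr3 at chr14:70077203-70082614, and on the minus strand Fosb at chr7:19302696-19310051, Junb at chr8:84974484-84978718 and Npas4 at chr19:4984355-4990316. Counts were taken over whole genes, so the values do not separate isoforms. Junb overlaps Prdx2 on the opposite strand, and since the strand setting of the counting is not given in the sources used here, reads from the pair could not be told apart if strand was not used. RefSeq promoter windows (GRCm38.p6) matched 7 of the genes, and Arc, Egr1 and Egr3 had none in the table. The cyclic AMP response element is the site of CREB, and TGACG is its shorter form. TGACG, on either strand, lay in the 250 bases upstream of all 7 matched genes, in 9 of their 11 windows, of which 5 are alternative starts of Egr2. Of all 32851 promoter windows of this length, 17.8% held it. The full palindrome TGACGTCA lay in none of the 11 windows and in 1.55% of all. The promoters shown here are from genes whose levels differ in the comparisons that follow or that varied together most, printed 5′ to 3′ toward the start site, with TGACG (or CGTCA, the other strand) and the EGR site GCGNGGGCG in capitals.

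Fos: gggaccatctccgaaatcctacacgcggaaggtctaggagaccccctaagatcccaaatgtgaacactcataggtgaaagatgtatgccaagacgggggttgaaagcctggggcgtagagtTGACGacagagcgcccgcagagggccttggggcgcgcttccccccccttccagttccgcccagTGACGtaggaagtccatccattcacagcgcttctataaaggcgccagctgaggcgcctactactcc
Nr4a1: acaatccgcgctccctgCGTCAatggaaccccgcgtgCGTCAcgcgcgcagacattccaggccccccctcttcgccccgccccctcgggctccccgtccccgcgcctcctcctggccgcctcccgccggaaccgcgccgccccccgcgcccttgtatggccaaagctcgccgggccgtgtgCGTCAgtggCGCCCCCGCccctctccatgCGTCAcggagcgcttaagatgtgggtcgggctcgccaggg
Egr4: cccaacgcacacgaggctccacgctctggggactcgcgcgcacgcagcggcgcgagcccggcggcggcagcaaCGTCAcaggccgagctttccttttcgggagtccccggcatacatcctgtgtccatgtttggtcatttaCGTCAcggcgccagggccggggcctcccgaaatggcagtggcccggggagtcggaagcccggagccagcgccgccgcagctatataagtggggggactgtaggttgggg

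The Fos window is chr12:85473640-85473889, with TGACG at bases -129 and -66 from the start site and a TATAAA box at -33. The Nr4a1 window is chr15:101266596-101266845, with 4 copies of the element at -233, -213, -69 and -40 and the EGR site, which the Egr proteins bind, at -60. The Egr4 window is chr6:85513590-85513839, with copies at -177 and -109. The EGR site was also present upstream of Fosb and in 4.7% of all windows. The AP-1 site TGANTCA, bound by Fos and Jun dimers, and the NR4A element AAAGGTCA lay in none of the 11 windows, against 6.75% and 1.34% of all, and a serum response element only in Egr2, against 1.47%. A match of letters is a description of the sequence and not a measured binding site.

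In uninjured mice given vehicle, 8 of the 10 genes were higher in the hippocampus than in the thalamus at 3 dpi by the edgeR call used throughout, an adjusted p under 0.05 over all genes tested and a log2 fold change beyond 0.32. Of all genes tested, 19.4% were called higher in the hippocampus and 21.5% lower. Fos alone was lower, and Npas4 was not called. Egr2, among these 8, was too low in the thalamus for a test there, and it entered the fits across regions through its counts elsewhere. In bulk tissue, fewer cells expressing a gene and less RNA per cell cannot be told apart, and the regions differ in which cells they hold.

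**Figure D1:**
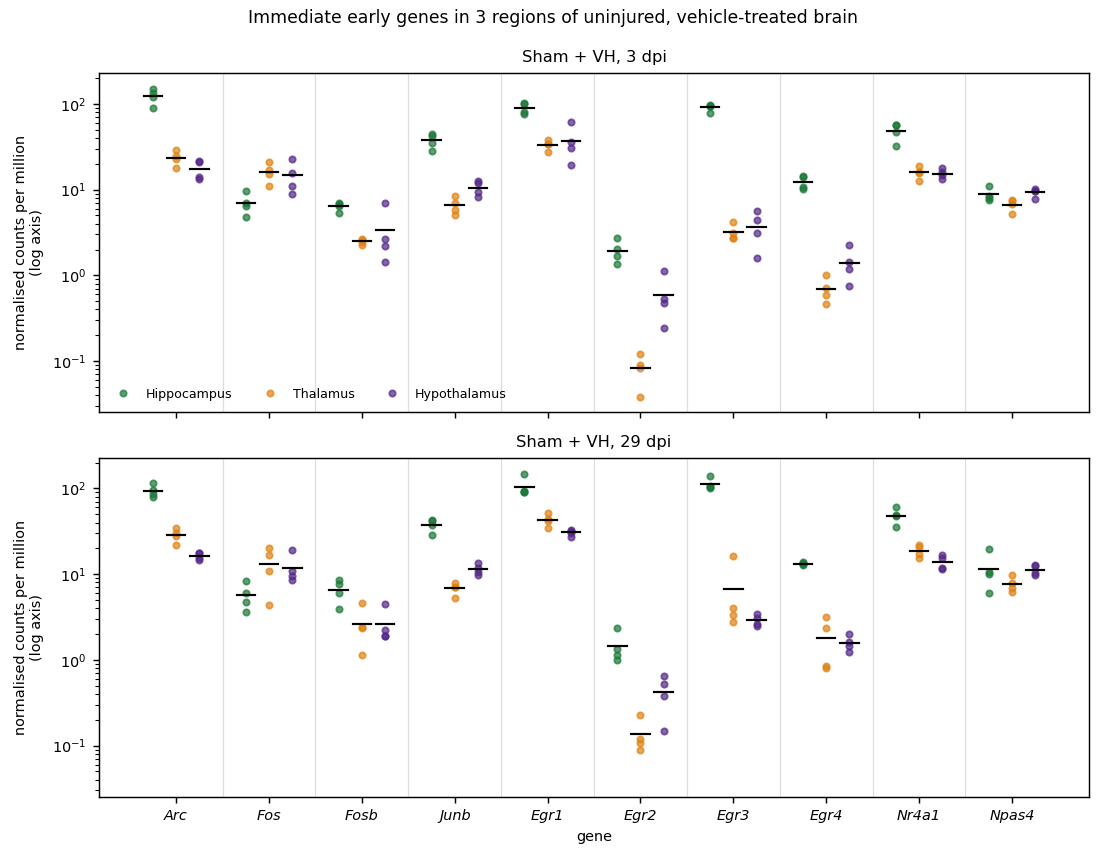
CPM (log axis) of the 10 genes in the Sham + VH libraries of the hippocampus, thalamus and hypothalamus, at 3 dpi (upper panel) and 29 dpi (lower panel). Dots are single libraries and bars are means of 4. Egr3 in the hippocampus stands 91.1 against 3.21 CPM in the thalamus at 3 dpi, while the hippocampal dots of Fos are below the thalamic ones.

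Egr3, Egr4 and Egr2 are zinc finger factors of the same family as Egr1, and they showed the widest spacing between hippocampus and thalamus. Egr3 measured 79.4, 93.6, 93.9 and 97.5 CPM in the 4 hippocampal Sham + VH libraries at 3 dpi, 2.73, 2.75, 3.12 and 4.22 CPM in the thalamus and 1.61, 3.10, 4.45 and 5.63 CPM in the hypothalamus (values normalised over the 48 libraries of a time point). The hippocampal libraries were all far above the others, with a log2 difference of 4.83 (SE 0.21, adjusted p = 8.28e-23) from the thalamus, whereas thalamus and hypothalamus overlapped and differed by -0.20 (adjusted p = 0.538). Egr4 followed the same order at 12.4 ± 2.23 CPM in the hippocampus (SD, n = 4 here and below), 1.41 ± 0.645 CPM in the hypothalamus and 0.697 ± 0.239 CPM in the thalamus. Egr4 in the thalamus was also called below the hypothalamus (-1.02, adjusted p = 0.0112). Egr2, which in the nerve directs myelination by Schwann cells, was scarce everywhere, with 1.95 ± 0.581, 0.593 ± 0.372 and 0.0825 ± 0.0334 CPM in hippocampus, hypothalamus and thalamus. At 0 to 16 counts per thalamic library it was too low for a test within the thalamus.

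Arc was the most abundant of the 10 per length of transcript in the hippocampus. Its CPM were 89.2, 121, 136 and 151 there at 3 dpi, 17.8, 22.9, 24.5 and 29.3 in the thalamus and 13.1, 14.2, 20.8 and 21.7 in the hypothalamus. The log2 difference of hippocampus and thalamus was 2.40 (SE 0.23), and the other regions overlapped with an adjusted p of 0.12. Per kilobase of exon, mean levels in the hippocampus ran from Arc at 40.7 CPM per kb over Egr3 at 20.7, Egr1 at 20.04, Junb at 16.3 and Nr4a1 at 13.8 CPM per kb, to Egr2 at 0.573 CPM per kb. Egr3 and Egr1, and Junb and Nr4a1, neighbours in that order, differed by less than the spread of either. In the thalamus Arc (7.73 CPM per kb), Egr1 (7.48 CPM per kb) and Fos (6.83 CPM per kb) led, and Egr3 came to 0.728 CPM per kb.

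Junb, a Jun family partner of Fos that often restrains c-Jun, and Nr4a1, an orphan nuclear receptor, were intermediate. The log2 difference between hippocampus and thalamus at 3 dpi was 2.51 for Junb, 1.61 for Nr4a1, 1.42 for Egr1 and 1.36 for Fosb, whose truncated product is known for building up under repeated stimulation. Junb was also higher in the hypothalamus than in the thalamus (thalamus minus hypothalamus -0.68, adjusted p = 0.00644).

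Fos ran the other way. Its CPM in Sham + VH mice at 3 dpi were 4.79, 6.49, 6.93 and 9.73 in the hippocampus, 10.98, 15.04, 17.1 and 21.1 in the thalamus and 8.87, 11.02, 15.7 and 23.0 in the hypothalamus. The hippocampal values lay below every thalamic value, with a log2 difference of -1.20 (SE 0.28, adjusted p = 0.000383) from the thalamus and -1.07 (adjusted p = 0.00115) from the hypothalamus, though they overlapped with the latter. Thalamus and hypothalamus did not differ beyond their spread for Fos (adjusted p = 0.727). Npas4, a factor induced almost solely by calcium entry in neurons, was closest in mean across regions, at 8.81 ± 1.55 CPM in the hippocampus, 9.39 ± 1.07 CPM in the hypothalamus and 6.71 ± 1.05 CPM in the thalamus. All hippocampal Npas4 libraries lay above all thalamic ones, with a log2 difference of 0.39 (adjusted p = 0.0685) that passed without hippocampal replicate 3 (0.46, adjusted p = 0.045), with only the Sham + VH libraries (adjusted p = 0.0371) and with the replicate block (adjusted p = 0.0406). In the fit of all 48 libraries it was called only as lower in the thalamus than in the hypothalamus (-0.48, adjusted p = 0.0282), a call lost without Sham + VH replicate 1 or 3 of the thalamus or replicate 3 or 4 of the hypothalamus (adjusted p from 0.0501 to 0.116).

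Against the hypothalamus, 8 genes were called higher in the hippocampus at 3 dpi (background 23.2%) and Fos lower (23.5%). Thalamus and hypothalamus were closer to each other: 4 genes, Junb, Egr2, Egr4 and Npas4, were called lower in the thalamus (background 13.9%) and none higher (14.7%, with 0 genes at an unadjusted edgeR p under 0.05 in that direction, where Arc came nearest at 0.44, and the same number of calls by DESeq2). The Egr2 call rests on counts near the floor in the thalamus, at a mean of 0.0825 CPM in Sham + VH. The Egr4 call between these regions was lost without thalamic Sham + VH replicate 2 (-0.86, adjusted p = 0.0523) or hypothalamic replicate 1 (-0.70, adjusted p = 0.096).

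In the separate cohort at 29 dpi the order held in broad outline. Hippocampus exceeded thalamus for 9 genes (background 19.9%) with Fos again lower (19.4%), and exceeded hypothalamus for 8 (22.2%) with Fos lower (22.8%). The log2 difference of hippocampus and thalamus was 4.14 for Egr3, 2.95 for Egr4, 1.72 for Arc and -1.09 for Fos. The Fos differences depended on single libraries: without thalamic Sham + VH replicate 2 the value was -0.84 (adjusted p = 0.0605), and against the hypothalamus it was -0.84 without hippocampal replicate 4 (adjusted p = 0.064) and -0.65 without hypothalamic replicate 1 (adjusted p = 0.149). The ninth gene was Npas4, at 0.61, and it was 0.14 (adjusted p = 0.515) without hippocampal Sham + VH replicate 3, the library that stood apart in hypothalamic markers.

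Between thalamus and hypothalamus at 29 dpi, Arc, Egr1, Egr3 and Nr4a1 were called higher in the thalamus (background 15.6%) and Junb, Egr2 and Npas4 lower (17.4%). Egr2 was again near the floor in the thalamus, at a mean of 0.135 CPM in Sham + VH. Arc (0.81) and Junb (-0.77) kept their calls whichever single Sham + VH library was left out. Egr3 was at 1.14 with all libraries and 0.23 (adjusted p = 0.483) without thalamic Sham + VH replicate 3. In that library Egr3 was 16.6 CPM and hippocampal excitatory markers summed to 713 CPM, against 495 to 590.4 CPM in the other libraries of its group, and the part of this in the difference was not tested. The calls of Egr1 (without thalamic replicate 1, adjusted p = 0.0557), Nr4a1 (without thalamic replicate 2 or 3 or hypothalamic replicate 2 or 4, up to 0.0754), Npas4 (without thalamic replicate 4 or hypothalamic replicate 1 or 3, up to 0.0845) and Egr2 (without hippocampal replicate 2, thalamic replicate 1, 2 or 4 or hypothalamic replicate 1, 2 or 3, up to 0.171) were likewise lost.

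In the hippocampus at 3 dpi, the region nearest the impact, Fos rose after injury in vehicle-treated mice, from 6.55 ± 1.93 to 10.4 ± 1.11 CPM, and in candesartan-treated mice Egr3, Egr4 and Npas4 fell. The other genes were not called in those comparisons. This was the only region and time point in which edgeR called any of the 10 genes between groups.

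**Figure D2:**
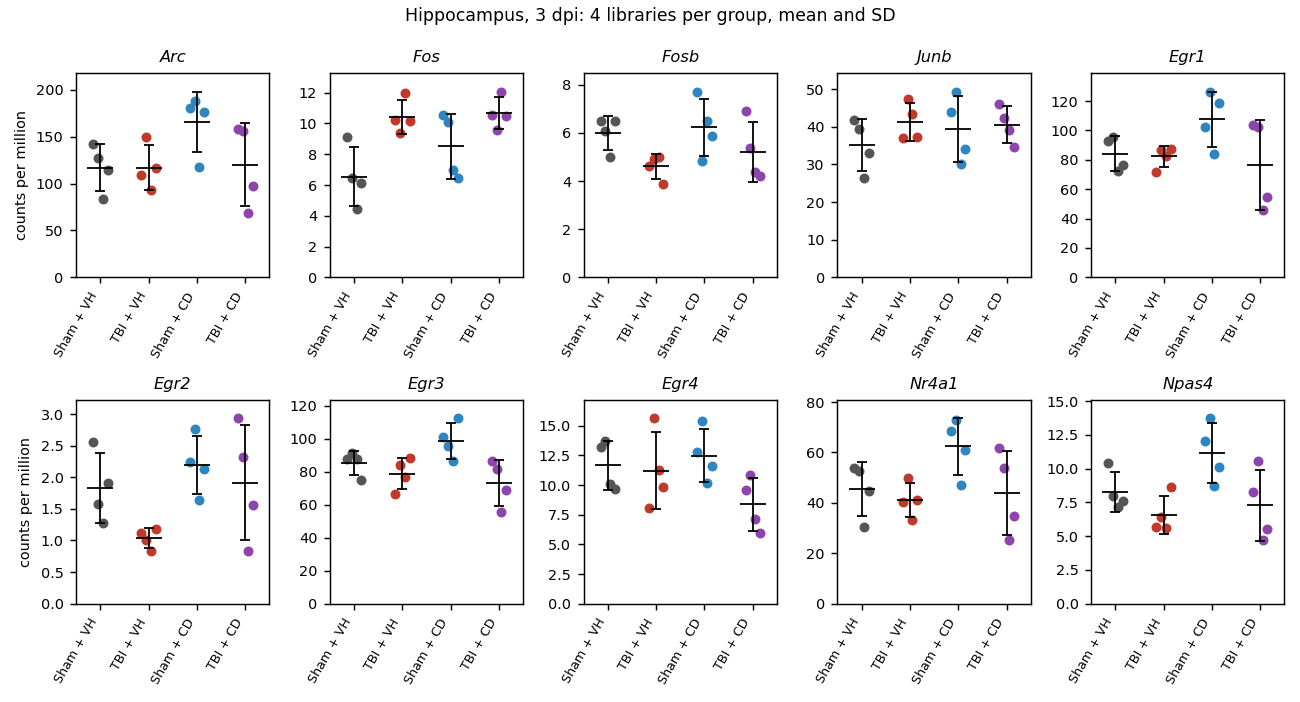
CPM of each gene in the 4 groups of the hippocampus at 3 dpi, with the axis from 0. Dots are single libraries, and the bar and whiskers are the mean and SD of 4. Fos in the 4 TBI + VH libraries (9.36 to 11.99 CPM) lies above all Sham + VH libraries (4.47 to 9.14 CPM).

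Fos encodes the AP-1 subunit most often used to map recent neuronal activity. Its CPM were 4.47, 6.11, 6.49 and 9.14 in Sham + VH, 9.36, 10.2, 10.2 and 11.99 in TBI + VH, 6.43, 6.99, 10.1 and 10.5 in Sham + CD and 9.54, 10.5, 10.6 and 12.1 in TBI + CD. Both injured groups lay wholly above Sham + VH, while Sham + CD spread over both ranges. TBI + VH exceeded Sham + VH with a log2 fold change of 0.67 (SE 0.18, adjusted p = 0.0192). Fos was 1 gene of 10 called higher there, a share close to the 8.99% of all 16756 genes tested that were, and no gene of the 10 was called lower (1.72%). TBI + CD exceeded Sham + VH with a log2 fold change of 0.70 (SE 0.18, adjusted p = 0.0129), again the only call (background 10.3% higher and 1.86% lower). These comparisons share the Sham + VH libraries. Against Sham + CD, Fos in TBI + CD differed by 0.33 (adjusted p = 0.182).

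The Fos call in TBI + VH was lost when Sham + VH replicate 3 (0.53, adjusted p = 0.0549), Sham + VH replicate 4 (0.64, adjusted p = 0.0571) or TBI + VH replicate 3 (0.60, adjusted p = 0.0699) was left out, while that in TBI + CD was kept in all 16 such fits. Markers of other cells moved with injury in the same libraries. The 6 microglial markers all rose, with sums of 279 to 299 CPM in Sham + VH against 545 to 799.7 CPM in TBI + VH, and 10 of 10 choroid plexus markers fell, with sums of 205 to 6672 CPM in Sham + VH against 23.0 to 168 CPM in TBI + VH. Of 6 astrocyte markers, 5 rose, with Gfap at 3.62 and sums of 3627 to 4379.6 CPM in Sham + VH against 6866 to 9016 CPM in TBI + VH, and 4 of 6 macrophage markers rose, with Lyz2 at 3.68 and sums of 9.96 to 16.9 against 37.3 to 144 CPM. The part of microglia, astrocytes and macrophages in the Fos difference was not tested. With the choroid plexus score as a covariate Fos in TBI + VH stood at 0.84 (adjusted p = 0.12), and with the pan-neuronal score at 0.55 (adjusted p = 0.385). In TBI + CD against Sham + VH the latter score also ended the call (0.58, adjusted p = 0.301).

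Egr2 was the only gene of the 10 whose TBI + VH libraries all lay below Sham + VH, at 0.831, 1.01, 1.12 and 1.18 against 1.27, 1.58, 1.90 and 2.55 CPM (groups did not overlap downward for 4.99% of all genes). The log2 fold change of -0.82 (SE 0.32, adjusted p = 0.104) did not pass the threshold. It was called without TBI + CD replicate 3 (adjusted p = 0.0402), with the replicate number as a block (0.0358) and with only the groups compared (0.0479), and it was -0.099 (adjusted p = 0.951) with the choroid plexus score as a covariate. The TBI + CD libraries at 0.841, 1.56, 2.33 and 2.94 CPM covered the whole Sham + VH range. Fosb stood at 5.002, 6.07, 6.47 and 6.50 CPM in Sham + VH and in TBI + VH 3.87, 4.62, 4.93 and 5.02 CPM, which overlap at a single library of each group, with a log2 fold change of -0.39 (SE 0.17, adjusted p = 0.151). The remaining 7 genes lay between -0.33 (Npas4) and 0.23 (Junb) on the log2 scale. Arc had the closest means, 117 ± 24.9 CPM without injury and 117 ± 23.8 CPM in TBI + VH.

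Among mice given candesartan the called genes were others. Npas4 measured 8.72, 10.1, 12.04 and 13.8 CPM in Sham + CD and 4.71, 5.57, 8.25 and 10.6 CPM in TBI + CD, with a log2 fold change of -0.62 (SE 0.22, adjusted p = 0.0364). Egr3 measured 86.2, 95.6, 101 and 112 CPM and 55.4, 68.6, 81.4 and 86.2 CPM, a log2 fold change of -0.44 (SE 0.12, adjusted p = 0.00896). Egr4 measured 10.2, 11.6, 12.8 and 15.4 CPM and 5.97, 7.16, 9.60 and 10.8 CPM, a log2 fold change of -0.58 (SE 0.21, adjusted p = 0.0391). In each case the lowest values were TBI + CD replicates 3 and 4, and the ranges of the groups touched or overlapped. These 3 of 10 genes were called lower, against 5.67% of all genes, and none was called higher, against 14.4%. Egr1 at -0.49 (adjusted p = 0.0774) and Nr4a1 at -0.51 (adjusted p = 0.0949) did not pass.

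These calls rested on few libraries. Without TBI + CD replicate 3, Egr3 stood at -0.31 (adjusted p = 0.0418), under the fold threshold. The Npas4 call was lost without replicate 1 or 2 of Sham + CD or replicate 3 or 4 of TBI + CD (adjusted p 0.0752 to 0.137). The Egr4 call was lost without TBI + VH replicate 3 or 4, replicate 1, 2 or 4 of Sham + CD, or replicate 3 or 4 of TBI + CD (adjusted p 0.0538 to 0.14). The Egr4 call was also lost when libraries were scaled by their totals only (adjusted p = 0.0511), and the Npas4 call when only the groups compared were fitted (adjusted p = 0.0669). Conversely, Egr1 was called without TBI + CD replicate 1 (-0.67, adjusted p = 0.0223) or replicate 2 (-0.67, adjusted p = 0.022), and Nr4a1 without replicate 1 (-0.72, adjusted p = 0.0242), while without TBI + CD replicate 3 they shrank to -0.29 (adjusted p = 0.265) and -0.30 (adjusted p = 0.308).

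Neuronal markers were lower in the same comparison. The 12 pan-neuronal markers summed to 9774 to 10184 CPM in Sham + CD and 8006 to 9219.8 CPM in TBI + CD, ranges that do not overlap, and 2 of them, Snap25 and Syt1, both of the synaptic vesicle release machinery, were called lower. The vehicle groups were at 9176 to 9643 CPM (Sham + VH) and 8019 to 8778 CPM (TBI + VH). Of 8 markers of hippocampal excitatory neurons, Prox1, Calb1 and Neurod6 were called lower. With the pan-neuronal score as a covariate, Egr3 was at -0.46 (adjusted p = 0.261), Egr4 at -0.17 (adjusted p = 0.832) and Npas4 at -0.17 (adjusted p = 0.846). None of the 3 kept its call, and the score itself separates the groups.

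With both treatments averaged, 8 injured against 8 sham libraries, Fos rose (0.50, SE 0.13, adjusted p = 0.00582, against a background of 13.3% of genes called higher), and Npas4 (-0.48, adjusted p = 0.024) and Fosb (-0.32, adjusted p = 0.0393) fell (background 2.47% lower). Fos and Fosb, which pair with the same Jun partners, thus had fitted values of opposite sign in the same tissue. Egr3 at -0.28 passed the adjusted p (0.0159) but not the fold threshold. The Fos call held in all 16 fits with a library left out and was lost with the pan-neuronal score as a covariate (0.34, adjusted p = 0.533). Fosb lost its call in 10 of them, without Sham + VH replicate 1, 2 or 4, TBI + VH replicate 1, 3 or 4, replicate 1 or 3 of Sham + CD, or replicate 3 or 4 of TBI + CD (adjusted p 0.0524 to 0.0962). It was also lost with library totals only (-0.29, adjusted p = 0.0651), with the choroid plexus score (-0.17, adjusted p = 0.306) and with the pan-neuronal one (-0.43, adjusted p = 0.362). Npas4 was at -0.091 (adjusted p = 0.904) with the pan-neuronal and -0.40 (adjusted p = 0.116) with the choroid plexus score, and it lost its call in 6 of the 16 fits, without Sham + VH replicate 1, TBI + VH replicate 1 or 3, replicate 2 of Sham + CD, or replicate 3 or 4 of TBI + CD (adjusted p 0.0528 to 0.0574).

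Early response genes outside these 10 were followed as a list of 28, most of which many cell types induce. Of the 28, 7 rose in TBI + VH and none fell, among them Atf3, a stress-induced factor (2.40), Cyr61, a secreted matrix protein (1.62), and Zfp36, which destabilises cytokine transcripts (1.08). Over all genes 8.99% were called higher and 1.72% lower. In TBI + CD against Sham + CD, 10 of 28 rose and 2 fell (all genes 14.4% and 5.67%), with Atf3 at 2.34, Cyr61 at 2.25 and Zfp36 at 1.85. The median over the 28 was 0.098 in the former comparison, beside -0.013 over all genes, and the median over the 10 neuronal genes was -0.089. In the latter, the 10 neuronal genes had a median of -0.45, beside 0.049 over the 28 and -0.00242 over all genes.

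Beside the 5.67% of all genes called lower in TBI + CD than in Sham + CD, 5 of 16 late effectors of activity were, including Inhba, the activin A subunit (-0.73), Pcsk1, a proprotein convertase (-0.52), and Rasgrp1, an activator of Ras (-0.46), and none in TBI + VH against Sham + VH, where edgeR gave 1 higher and 1 lower at an unadjusted p under 0.05. Of 21 upstream regulators, 5 were lower in TBI + CD, including Mkl2, a coactivator of serum response factor (-0.51), the activity-regulated factor Mef2c (-0.39) and the calcium-dependent kinase Camkk2 (-0.39), and of 11 dimer partners and corepressors Atf2 alone (-0.33). Of 15 glucocorticoid and stress response genes, 4 rose in TBI + VH, with the metallothioneins Mt2 at 1.63 and Mt1 at 1.29, and 8 in TBI + CD against Sham + CD (all genes 8.99% and 14.4%). In the other sets the calls among these lists were limited to Atf3 in the thalamus at 3 dpi, Cyr61 and Zfp36 in the hippocampus at 29 dpi and, of the stress response genes, Sgk1 in the former and Nfkbia and Ddit4 in the latter. Whether the injury effect itself differed between vehicle and candesartan was tested as an interaction, and none of the 10 genes passed (smallest adjusted p 0.431, 0 at an unadjusted p under 0.05, 0 by DESeq2).

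Candesartan in sham mice moved none of the 10 genes past the threshold in the hippocampus at 3 dpi (background 0.0836% higher, 1.41% lower). Fitted values of all 10 were above 0, from 0.048 to 0.51, where 49.9% of all genes were. Arc alone had an unadjusted p under 0.05 (0.0424, with 6.99% of all genes higher at that p), at 83.3, 114, 127 and 142 CPM in Sham + VH and 118, 176, 181 and 188 CPM in Sham + CD, and DESeq2 called none. Choroid plexus markers were lower in these Sham + CD libraries, at 60.9 to 118 CPM, and 9 of the 10 were called. Between TBI + CD and TBI + VH no gene of the 10 was called (background 0% higher and 0% lower, smallest adjusted p 0.999), Egr2 alone had an unadjusted p under 0.05 and DESeq2 called none.

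**Figure D3:**
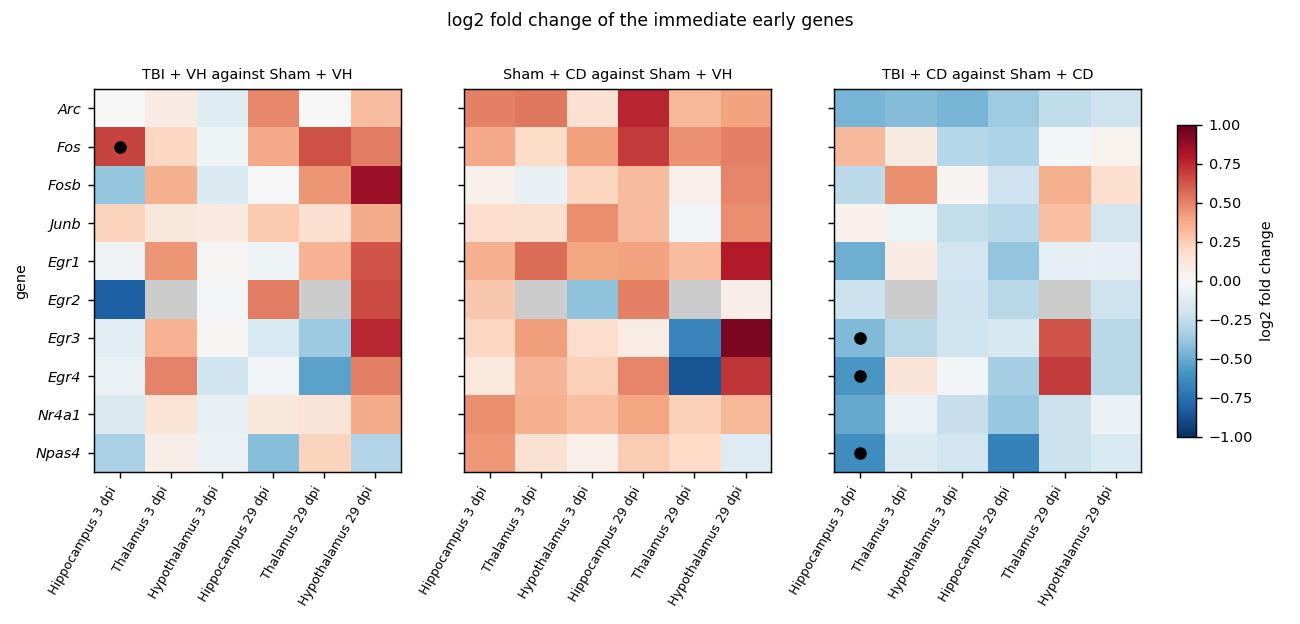
Fitted log2 fold changes of the 10 genes (rows) in the 6 region and time point sets (columns) for TBI + VH against Sham + VH, Sham + CD against Sham + VH and TBI + CD against Sham + CD. Colour runs from -1 to 1, black dots mark calls, and grey marks Egr2 in the thalamus, which was not tested. The only dots are in the hippocampus at 3 dpi, at Fos (TBI + VH) and at Egr3, Egr4 and Npas4 (TBI + CD against Sham + CD).

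In the thalamus at 3 dpi, Egr1 was the gene that stood out, although no gene of the 10 was called by edgeR in any comparison. Egr1, whose product regulates synaptic plasticity genes, measured 27.2, 33.7, 33.9 and 37.9 CPM in the Sham + VH libraries, 38.2, 42.8, 43.2 and 56.4 CPM in TBI + VH, 40.7, 46.0, 52.0 and 56.9 CPM in Sham + CD and 39.3, 51.0, 57.8 and 58.9 CPM in TBI + CD. The Sham + VH libraries were below every library of the other groups. The log2 fold changes from this shared control were 0.44 (adjusted p = 0.522), 0.56 (adjusted p = 0.575) and 0.64 (adjusted p = 0.0719) in that order. Groups did not overlap upward for 1.55%, 2.88% and 2.64% of all genes. DESeq2 called Egr1 in TBI + CD (adjusted p = 0.00347), and edgeR did so without TBI + VH replicate 1 (adjusted p = 0.0381) or TBI + CD replicate 2 (0.75, adjusted p = 0.0282).

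Arc in the thalamus was 17.6, 22.6, 24.2 and 28.9 CPM in Sham + VH and 31.3, 32.2, 33.8 and 37.1 CPM in Sham + CD, again without overlap (0.53, adjusted p = 0.606), whereas TBI + CD at 19.5, 22.9, 28.2 and 29.0 CPM overlapped with the Sham + VH range. Of 9 genes tested, 1 was higher than in Sham + VH in the TBI + VH group, 4 in the Sham + CD group and 1 in the TBI + CD group at an unadjusted edgeR p under 0.05 (backgrounds 2.82%, 3.98% and 4.58%), and none was lower. Genes called higher amounted to 0.298%, 0% and 0.418% of all genes. Hypothalamic markers summed to 34.5 to 475 CPM in Sham + VH, 223 to 362 CPM in Sham + CD, 77.5 to 664 CPM in TBI + VH and 14.3 to 494 CPM in TBI + CD, and their part in these values was not tested.

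The hypothalamus at 3 dpi showed the least. In TBI + VH all 10 fitted values lay between -0.20 and 0.096, none with an unadjusted edgeR p under 0.05. In Sham + CD the smallest p belonged to Junb, at 8.80, 10.1, 12.7 and 13.6 CPM in Sham + VH and 11.4, 15.7, 16.7 and 18.4 CPM in Sham + CD (0.46, unadjusted p = 0.0123). No gene was called there by edgeR or DESeq2 in any comparison and at most 1 of the 10 reached an unadjusted p under 0.05, with calls over all genes at 0% in each of TBI + VH, Sham + CD and TBI + CD against Sham + VH.

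At 29 dpi in the hippocampus Arc differed between the sham groups by more than their spread, without passing the adjusted test. Arc measured 75.5, 81.5, 91.3 and 108 CPM in the Sham + VH libraries, 82.1, 129, 133 and 153 CPM in TBI + VH, 125, 146, 154 and 183 CPM in Sham + CD and 111, 111, 113 and 137 CPM in TBI + CD. Every Sham + CD library was above every Sham + VH library, with a log2 fold change of 0.76 (SE 0.16, adjusted p = 0.941) and an unadjusted p of 0.000168. DESeq2 called it (adjusted p = 0.00947). TBI + VH stood between, at 0.48 (adjusted p = 0.319), and was called without TBI + VH replicate 2, the lowest of its group and of low depth (0.63, adjusted p = 0.0304).

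Egr4 was also without overlap, at 12.4, 12.4, 12.7 and 13.1 CPM in Sham + VH and 16.9, 17.4, 17.6 and 19.2 CPM in Sham + CD (0.48, adjusted p = 0.941). The 4 Sham + VH values lie close together, with an SD of 0.346 CPM. All 10 genes had fitted values above 0 in Sham + CD (all genes 46.2%), and 6 of them an unadjusted edgeR p under 0.05 (all genes 1.74%). No gene was called by edgeR, against 0% of all genes called higher. Without the 4 libraries of low depth, an alternative chosen after seeing the data, Arc was at 0.63 (adjusted p = 0.45). These 10 values share 8 libraries and covary across them, so they are not 10 separate observations.

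Within candesartan-treated mice the direction was the opposite. All 10 genes were below 0 in TBI + CD against Sham + CD at 29 dpi, 6 with an unadjusted edgeR p under 0.05 (all genes 2.9%) and none called by edgeR or DESeq2 (background 0.00594% lower). The ranges did not overlap for Egr1 (121 to 147 against 86.5 to 112 CPM), Egr4 (16.9 to 19.2 against 12.8 to 15.4 CPM), Nr4a1 (52.9 to 70.7 against 41.3 to 52.6 CPM) and Npas4 (10.6 to 15.4 against 6.88 to 9.44 CPM), as for 3.18% of all genes. Npas4 had the largest fitted value at -0.67 (adjusted p = 0.313). This comparison shares its Sham + CD libraries with the preceding one, so that a high Sham + CD group moves both. Malat1, a nuclear noncoding RNA, was at 1502 ± 151 CPM in Sham + VH, 1328 ± 36.9 CPM in Sham + CD, 1271 ± 120.3 CPM in TBI + VH and 889 ± 158 CPM in TBI + CD in these libraries, and its part in the values of the 10 genes was not tested. The interaction of injury and candesartan was below 0 for all 10 genes, where 51.2% of all genes were above 0, and reached an unadjusted p under 0.05 in 4 (all genes 2.07% lower at that p), among them Arc (-0.84), with a smallest adjusted p of 0.892.

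TBI + VH differed little from Sham + VH at 29 dpi: Arc was the 1 gene of 10 at an unadjusted edgeR p under 0.05 (all genes 4.81% higher), none was called by either tool (background 0.523% higher and 0.00594% lower), and Fos, the gene that had risen at 3 dpi, measured 3.47, 4.496, 5.73 and 7.85 CPM in Sham + VH, but 5.06, 6.47, 6.54 and 10.9 CPM in TBI + VH (0.38, adjusted p = 0.86). Npas4 in Sham + VH was 5.80 CPM in replicate 1 and 18.6 CPM in replicate 3, the lowest and highest of the group. Over all injured against all sham libraries it was at -0.55 (adjusted p = 0.147), and it was called without Sham + VH replicate 1 (-0.67, adjusted p = 0.00994) and at -0.33 (adjusted p = 0.297) without replicate 3. Replicate 3 also held the highest Sham + VH values of Egr1 (138 CPM) and Egr3 (131 CPM), and its cortical markers summed to 295 CPM against 150.2 to 165 CPM in the others, and the part of its dissection in those values was not tested. Without it, Arc in Sham + CD against Sham + VH was at 0.88 (adjusted p = 0.607).

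In the thalamus at 29 dpi no gene was called by edgeR or DESeq2 in any comparison (0% of all genes called higher in each of TBI + VH and Sham + CD against Sham + VH and TBI + CD against Sham + CD). Egr3 had an uneven Sham + VH group, with 2.78, 3.36, 4.01 and 16.6 CPM in Sham + VH against 4.805, 4.93, 5.35 and 5.42 CPM in TBI + VH. Of 9 genes tested, 1 in TBI + VH (Egr1) and 1 in Sham + CD (Egr1) had an unadjusted p under 0.05, both higher than Sham + VH (backgrounds 0.832% and 1.44%).

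In the hypothalamus at 29 dpi the Sham + VH group was the lowest for Egr1 and Egr3. Egr1 measured 29.0, 32.3, 34.1 and 35.2 CPM in the Sham + VH libraries, 37.6, 47.9, 56.5 and 58.4 CPM in TBI + VH, 45.9, 56.1, 58.0 and 64.7 CPM in Sham + CD and 44.8, 46.5, 56.7 and 65.0 CPM in TBI + CD. All 12 libraries of the other groups lay above all Sham + VH libraries. The log2 fold changes from this shared control were 0.63 in TBI + VH (unadjusted p = 0.00031), 0.79 in Sham + CD (adjusted p = 0.336) and 0.71 in TBI + CD (adjusted p = 0.908). None passed by edgeR, and DESeq2 called Egr1 in Sham + CD (adjusted p = 0.000297) and TBI + CD (adjusted p = 0.00906).

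**Figure D4:**
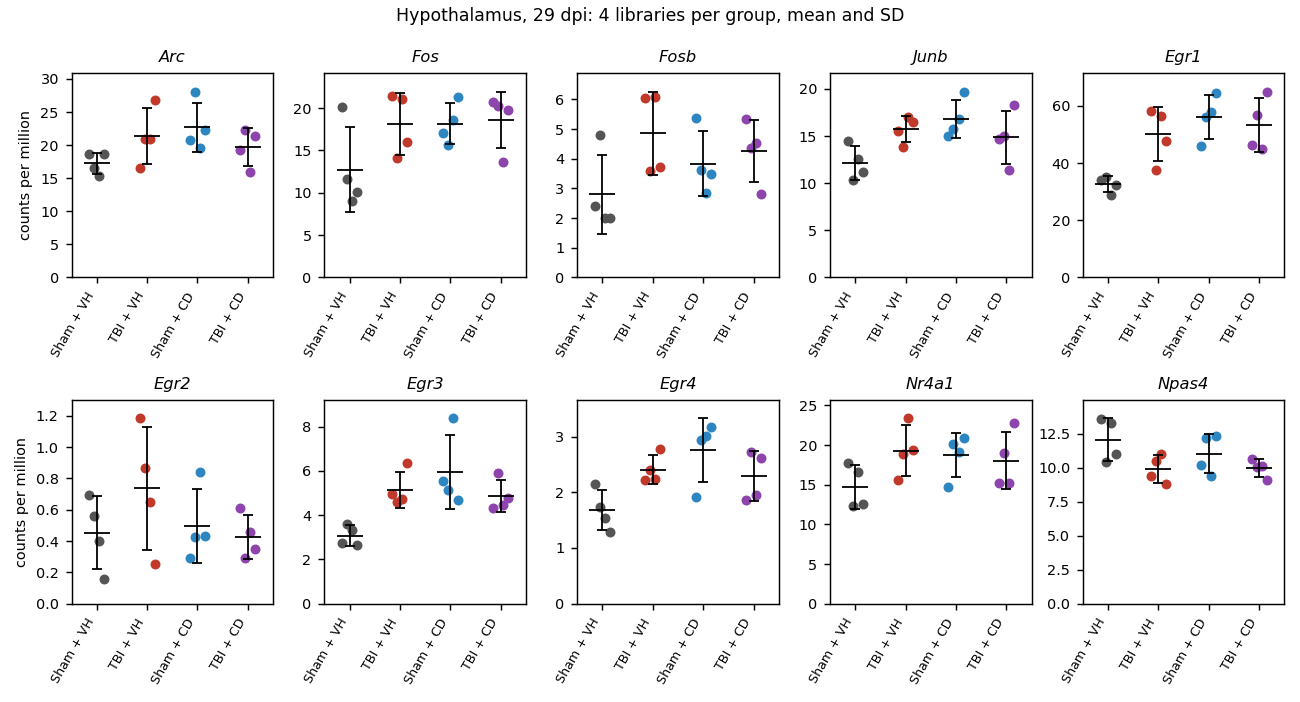
CPM of each gene in the 4 groups of the hypothalamus at 29 dpi, with the axis from 0. Dots are single libraries, and the bar and whiskers are the mean and SD of 4. For Egr1 and Egr3 the Sham + VH libraries (29.0 to 35.2 and 2.64 to 3.61 CPM) lie below all others, and for Npas4 they reach highest, at 13.5 CPM.

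Egr3 was alike, with 2.64, 2.76, 3.31 and 3.61 CPM in the Sham + VH libraries, 4.59, 4.72, 4.95 and 6.35 CPM in TBI + VH, 4.68, 5.14, 5.56 and 8.38 CPM in Sham + CD and 4.34, 4.44, 4.78 and 5.89 CPM in TBI + CD. In TBI + VH 8 genes were higher and Npas4 lower (-0.29) at an unadjusted edgeR p under 0.05 (all genes 1.29% higher, 1.5% lower), and 3 lay wholly above Sham + VH (all genes 1.03%). Fosb in TBI + VH was at 0.85 with values of 3.59, 3.71, 6.05 and 6.10 CPM against 1.998, 2.02, 2.39 and 4.795 CPM. In Sham + CD 6 genes were higher at that p (all genes 6.12%) and 4 did not overlap (4.55%): Egr1, Egr3 at 0.94, Junb at 0.46 and Arc at 0.40. Egr4, at 0.71, overlapped. The smallest adjusted p over the 10 genes was 0.9997 in TBI + VH and 0.336 in Sham + CD, where calls over all genes were 0.00583% and 0%. DESeq2 called none in TBI + VH, and Egr3 beside Egr1 in Sham + CD (adjusted p = 0.00721).

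Malat1 differed in these same hypothalamic libraries: 435 ± 53.5 CPM in Sham + VH, 872 ± 99.6 CPM in TBI + VH, 387 ± 44.5 CPM in Sham + CD and 573 ± 137 CPM in TBI + CD. Its part in the differences between these groups was not tested. The interaction was below 0 at an unadjusted p under 0.05 for 5 genes in the hypothalamus, with Egr3 at -1.03 and Egr1 at -0.71 (all genes 2% lower at that p, smallest adjusted p of the 10 genes 0.791).

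Candesartan in uninjured mice can be followed over all 6 sets, since none of them share libraries, though mice may be shared between regions. Arc, Fos, Egr1 and Nr4a1 had fitted values above 0 in each set, and of all 15951 genes tested in 6 sets 2.95% did. None of these values passed the edgeR threshold. For Arc they ran from 0.15 to 0.76, for Egr1 from 0.31 to 0.79, for Fos from 0.19 to 0.70 and for Nr4a1 from 0.24 to 0.46. The highest Fos value, in the hippocampus at 29 dpi, was 0.40 without Sham + CD replicate 1 and 0.12 without the 4 libraries of low depth. Arc and Egr1 each reached an unadjusted p under 0.05 in 4 of the 6 sets, and Fos and Nr4a1 each in 2. The groups overlapped for Fos in 6 of 6 sets and for Arc in 3. Fosb, Junb, Egr2, Egr3, Egr4 and Npas4 were each below 0 in 1 set of this comparison. Their lowest values were -0.86 for Egr4, -0.67 for Egr3, -0.40 for Egr2, -0.13 for Npas4, -0.075 for Fosb and -0.025 for Junb. In TBI + CD against Sham + CD, Arc, Nr4a1 and Npas4 were below 0 in each of the 6 sets (4.88% of all genes), with Arc from -0.47 to -0.21. It shares the Sham + CD libraries with the preceding comparison, so that high values there move both, in opposite directions. Junb was above 0 in each of the 6 sets in TBI + VH against Sham + VH (4.78% of all genes), and Fos and Junb were in TBI + CD against Sham + VH (5.54%), comparisons that share the Sham + VH libraries with the first.

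**Figure D5:**
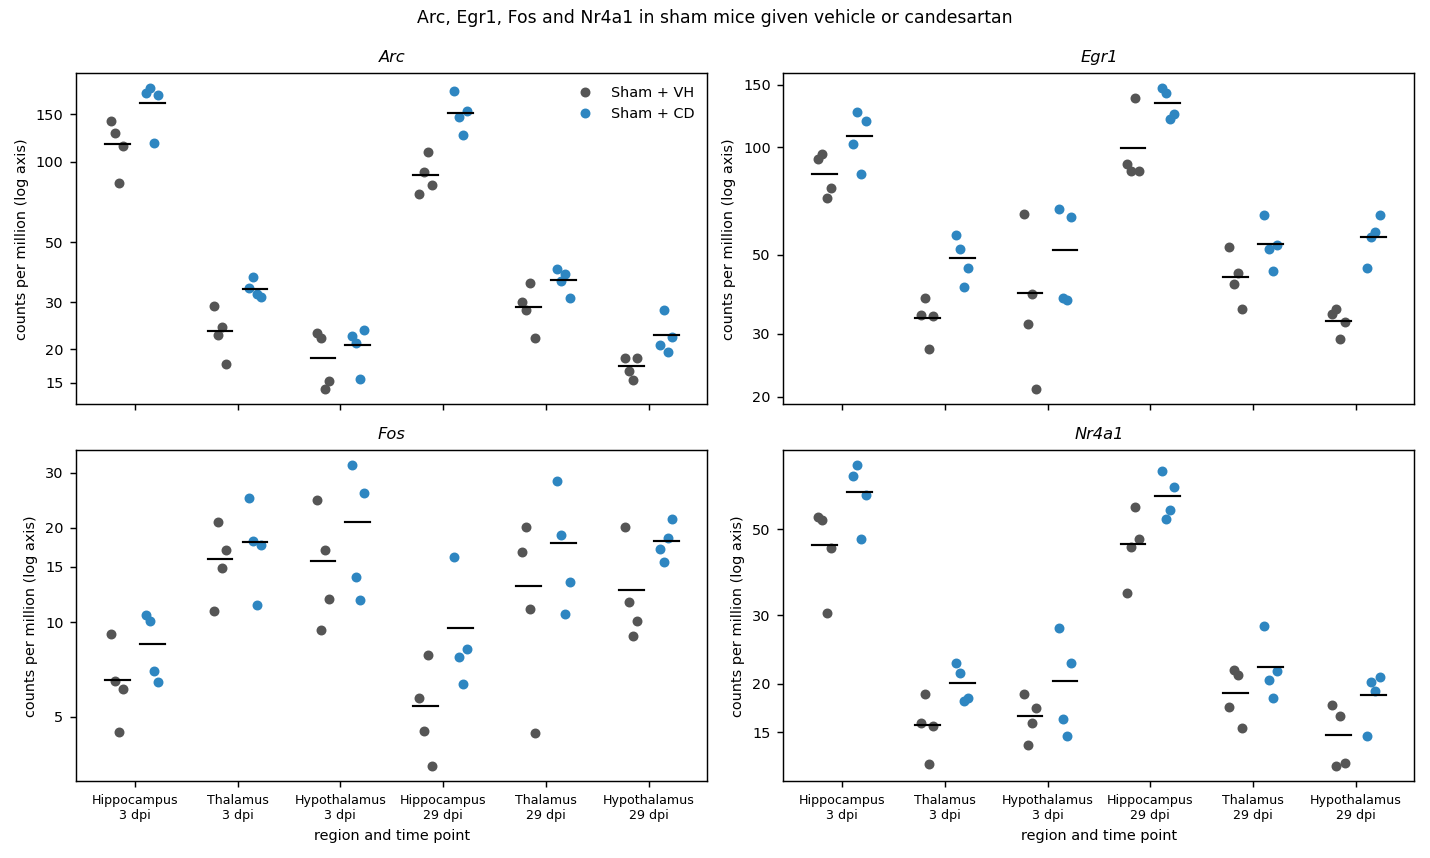
CPM (log axis) of Arc, Egr1, Fos and Nr4a1 in Sham + VH and Sham + CD libraries in each region and time point. Dots are single libraries and bars are means of 4. The Sham + CD mean lies above the Sham + VH mean for all 4 genes in every set, with the dots of Arc apart in the hippocampus at 29 dpi (75.5 to 108 against 125 to 183 CPM).

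Whether injury acted differently in the hippocampus than in the thalamus or the hypothalamus was tested directly. In this and the other differences of injury effect, injury was averaged over the vehicle and candesartan groups. At 3 dpi Fosb was the 1 gene of 10 whose injury effect differed between hippocampus and thalamus (hippocampus minus thalamus -0.76, SE 0.27, adjusted p = 0.0445), against 18.5% of all genes. The Fosb values of the hippocampus stand above, and in the thalamus they were 2.25, 2.42, 2.55 and 2.64 CPM in Sham + VH, but 2.27, 3.06, 3.33 and 3.96 CPM in TBI + VH. In the vehicle groups alone neither effect was called. With both treatments averaged, the hippocampal effect was called (-0.32, adjusted p = 0.0393) and the thalamic one was not (0.41). The difference lost its call without any of hippocampal Sham + VH replicates 1, 2 and 4 or thalamic Sham + VH replicates 1, 2 and 3 (adjusted p 0.0506 to 0.0667). The Fos effect differed by 0.32 (adjusted p = 0.466). Egr1, Egr2, Egr4 and Npas4 also had a difference below 0 at an unadjusted p under 0.05 without passing, and DESeq2 called Egr2 beside Fosb. Egr2 reached at most 0.469 CPM in the thalamus at 3 dpi, too low for a test there, so its difference rests on counts near the floor. No injury effect of the 10 genes differed between hippocampus and hypothalamus at 3 dpi (all genes 19.8%), between hippocampus and either other region at 29 dpi, where Egr1 had the smallest adjusted p (hippocampus minus hypothalamus -0.49, unadjusted p = 0.00458, adjusted p = 0.395) and Npas4 the smallest unadjusted p (hippocampus minus thalamus -0.57, unadjusted p = 0.00439, adjusted p = 0.579), or between 29 and 3 dpi in any region (hippocampus, all genes 11.3%), and DESeq2 called none of these either. Fos, at 0.64, and Npas4, at -0.37, had an unadjusted edgeR p under 0.05 between hippocampus and hypothalamus at 3 dpi, Egr1 in both comparisons and Npas4 in that with the thalamus at 29 dpi, and 0 genes between the time points.

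Within groups the genes varied together from library to library, more in some sets than in others. After subtracting group means, the mean Pearson r over gene pairs was 0.56 in the hippocampus at 3 dpi, 0.29 in the thalamus and 0.36 in the hypothalamus, and 0.47, 0.40 and 0.15 at 29 dpi (16 libraries each, described with no test, since pairs share libraries and depth). Arc and Nr4a1 in the hippocampus at 3 dpi had the highest r at 0.98. In that set replicates 3 and 4 of TBI + CD were low together for both: Arc was 68.5 and 97.3 CPM there against 158 and 156 CPM in replicates 1 and 2, and Nr4a1 25.4 and 34.7 against 61.7 and 53.9 CPM. Egr3 and Npas4 in the hypothalamus at 29 dpi had the lowest, at -0.63. Averaged over the sets, Junb and Nr4a1 (0.66) and Egr1 and Nr4a1 (0.64) were the closest pairs.

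Spread within a group differed by gene. The coefficient of variation over 4 libraries was smallest for Egr4 in hippocampal Sham + VH at 29 dpi, at 2.74%, and largest for Egr2 in thalamic TBI + CD at 29 dpi, at 102%. Egr3 in thalamic Sham + VH at 29 dpi followed at 99.1%. Fosb reached 74.5% in hypothalamic Sham + VH at 3 dpi and Fos 52.4% in thalamic Sham + VH at 29 dpi. Arc, Junb and Nr4a1 went no higher than 37.1%, 39.6% and 38.2%.

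The genes outside the 10 whose library-to-library pattern was most like their mean were ranked over 14969 genes by Pearson r averaged over the 6 sets of 16 libraries. They were AK006051 (0.72), Midn (0.57), Klf2 (0.55), Mmp17 (0.53), Gm29766 (0.52), Ctdsp2 (0.52), Sbk1 (0.52), Fosl2 (0.52), Fmnl1 (0.51) and Dnajb1 (0.50). Klf2 and Fosl2 belong to the list of 28 other early response genes, Midn encodes midnolin and Dnajb1 a heat shock cochaperone. Of these 10 genes, 6 were also among the first 10 by Spearman's rho.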

How the data were processed

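RNA from 96 hippocampal, thalamic and hypothalamic dissections had been poly-A selected and sequenced. The authors aligned the reads to mm10 with MapSplice and counted reads per gene with HTSeq 0.9.1, whose annotation and strand setting are not given in the sources used here. They deposited raw counts per gene for every library, in one table per time point, and analysed them with DESeq2 1.16.1.

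The deposited counts of the 16 libraries of each region and time point were filtered (filterByExpr), normalised by TMM and fitted with the quasi-likelihood test of edgeR 4.0.16 in R 4.3.3, with 4 groups and no covariate. The p-values were adjusted by Benjamini-Hochberg over all genes tested. A gene was called where its adjusted p was under 0.05 and its log2 fold change lay beyond 0.32 in either direction, and interactions and differences in injury effect at the adjusted p alone. Standard errors are the absolute log2 fold change divided by the square root of F. Regions were compared in 1 fit of the 48 libraries of a time point. CPM values use the TMM-scaled library totals, and log2 values for correlations and marker scores a prior count of 2.

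All 10 genes were named in every comparison, and of the other lists at most the 3 called genes of largest absolute log2 fold change with a mean of at least 1 CPM. Genes most like the 10 were the 10 highest by Pearson r of deviations from group means. Members and lists were chosen with earlier results of these data known. Alternatives were DESeq2 1.42.0, RLE factors, library totals, no filter, no fold threshold, fits of the groups compared alone, a replicate block, marker scores as covariates and leaving out each library. In the fits across regions only the Sham + VH libraries were left out in turn, and in those across time points none was. No 2 libraries of a group were identical or within sampling noise (144 pairs, chi-square per degree of freedom from 2.75 to 51.4 over genes with at least 20 counts in the pair). The code was tested on simulated data.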

Additional observations from a re-analysis of the deposited data

Results flagged for a closer look

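Each of 232 sets of 4 values, 1 per gene and group, was examined for a library far from the other 3 (a gap to its neighbour above Dixon's critical share of the range). In 14 of them a library exceeded this limit, and chance alone gives about 1 in 20. In the hippocampus at 29 dpi there were 5: the highest libraries of Egr1 and Egr3 in Sham + VH (138 and 131 CPM), of Egr1 and Egr2 in TBI + VH (142 and 4.70 CPM), and of Arc in TBI + CD (137 CPM). In the thalamus at 29 dpi there were 4: the highest of Fos in TBI + CD (25.5 CPM), of Egr3 in Sham + VH (16.6 CPM) and of Egr4 in Sham + CD (1.74 CPM), and the lowest of Nr4a1 in TBI + VH (18.4 CPM). In the hypothalamus at 29 dpi the lowest of Fos in TBI + CD (13.7 CPM) and the highest of Fosb in Sham + VH (4.795 CPM) stood apart. At 3 dpi these were the lowest Arc library of hippocampal Sham + CD (118 CPM), the lowest Fosb library of thalamic TBI + CD (2.16 CPM) and the highest Egr3 library of hypothalamic Sham + CD (6.29 CPM).

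The injury effect on Fosb, averaged over vehicle and candesartan groups, differed between hippocampus and thalamus at 3 dpi by the interaction test of edgeR (hippocampus minus thalamus -0.76, adjusted p = 0.0445). Of all genes, 18.5% were called in that test. The Fosb call was lost in 6 of 12 fits with a Sham + VH library left out (adjusted p up to 0.0667) and without the filter on low counts (adjusted p = 0.055).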

How the results depend on the processing

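Counts of the 10 genes called that changed by over 1.5 times were as follows. In the hippocampus at 3 dpi, TBI + VH against Sham + VH called 1 gene, but 2 with the replicate block, 2 when only the groups compared were fitted and 0 with the neuronal or choroid plexus score. TBI + CD against Sham + VH called 1, with 2 under the block and 0 with the neuronal score. TBI + CD against Sham + CD called 3, with 6 under the block, 6 with the choroid plexus score and 0 with the neuronal score. TBI against sham groups called 3, with 6 under the block, 1 with the choroid plexus and 0 with the neuronal score. Sham + CD against Sham + VH called 0, with 2 under the block. Comparisons at 0 elsewhere rose to 1 for thalamic TBI + CD against Sham + VH at 3 dpi (DESeq2 and the block), hippocampal TBI + CD against Sham + CD at 29 dpi (only the groups compared, Npas4 at -0.67), hippocampal Sham + CD and CD against VH groups at 29 dpi (DESeq2) and hypothalamic TBI + CD against Sham + VH at 29 dpi (DESeq2), and hypothalamic Sham + CD to 2 with DESeq2 and 1 with only the groups compared. The difference in injury effect between hippocampus and thalamus at 3 dpi went from 1 to 2 with DESeq2, 0 without the filter and 3 under the block, and thalamus against hypothalamus at 29 dpi from 7 to 4 with only the Sham + VH libraries. Smaller moves were from 3 to 2 in TBI + CD against Sham + CD (library totals, only the groups compared) and in TBI against sham groups (library totals; 4 with no fold threshold), from 9 to 10 in hippocampus against thalamus at 3 dpi (the block, only the Sham + VH libraries), from 10 to 9 in the same at 29 dpi (only the Sham + VH libraries) and from 7 to 6 in thalamus against hypothalamus at 29 dpi (no filter). Fosb in hippocampal TBI + VH at 3 dpi turned from -0.39 to 0.0016 with the choroid plexus score, and Egr4 in TBI against sham groups from -0.32 to 0.019 with the neuronal score. The cause was not tested.

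Samples share only a replicate number, so the replicate block pairs nothing known. Within sets, deviations of same-numbered libraries had a mean r of 0.012 to 0.18. Between regions, mean deviations of the 10 genes in same-numbered libraries of a group were also correlated (Pearson, n = 16). At 3 dpi r was 0.39 for hippocampus and thalamus, 0.56 for hippocampus and hypothalamus and 0.13 for thalamus and hypothalamus. At 29 dpi r was 0.46, -0.12 and 0.17 in that order. Whether regions share mice was not tested. Leaving out each library gave 0 to 2 calls in hippocampal TBI + VH at 3 dpi, 1 in TBI + CD against Sham + VH, 0 to 5 in TBI + CD against Sham + CD and 1 to 6 in TBI against sham groups, and 0 to 1 in thalamic TBI + CD against Sham + VH, in hippocampal TBI + VH and TBI groups at 29 dpi and in the injury effects between regions at 3 dpi. In the fits across regions only Sham + VH libraries were left out. Calls between regions ranged from 9 to 10 (hippocampus against thalamus), 8 to 10 (hippocampus against hypothalamus) and 3 to 7 (thalamus against hypothalamus).

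Of the single-gene values under these alternatives, 3085 kept their direction and side of the threshold, 83 lost a call, 37 gained one and 2 changed sign. RLE factors changed none. Without the low-depth hippocampal libraries, an alternative chosen after seeing the data, all 23 single-gene values at 29 dpi kept their side. Depth limits Egr2, at 0 to 16 counts per library in the thalamus. With 4 libraries per group of mice that the labels do not identify, the tests measure the spread between dissections, and the differing content of choroid plexus, neurons and neighbouring tissue cannot be separated from levels within neurons.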
